A study of Mus musculus with 11 samples.

Results

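Rhox5, Rhox8, Rhox10 and Rhox13 are 4 genes of the reproductive homeobox (Rhox) cluster on the mouse X chromosome. They were taken by gene symbol from the RNA sequencing count tables, 2 as genes of Sertoli cells (Rhox5, Rhox8) and 2 as genes of germ cells (Rhox10, Rhox13), out of 33188 genes and 1088 transposable element subfamilies counted. The tables held 27 other Rhox rows.

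Poly-A RNA had been sequenced from whole testes at postnatal day 5 of mice on a C57BL/6J background. The 4 genotypes were wild type (WT, 2 libraries), Dnmt3C KO (homozygous for a constitutive knockout allele, 3 libraries), Nrf1 cKO (1 knockout allele and 1 floxed allele of Nrf1, the floxed allele recombined by Ddx4-Cre, which acts in germ cells, 3 libraries) and dKO (both, 3 libraries). DNMT3C is a DNA methyltransferase of male germ cells that methylates young retrotransposons, and NRF1 is a transcription factor whose binding is blocked by DNA methylation. The labels call the Nrf1 alleles KO/KO and do not say that the deletion is confined to germ cells, nor whether controls carried Cre; the driver and the age come from the study's methods. Library totals ran from 26063590 to 39365841 counts, with a median of 33862160.

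The library titles name germ cells, but the RNA was that of a testis with its somatic cells. The summed level of 18 Sertoli cell markers was 5062 to 9070 CPM (counts scaled to the total of the library), against 144 to 718 CPM for 24 germ cell markers, and none of these markers was at 0 in any library. The reads of the targeted genes did not separate the genotypes. Nrf1 stood at 51.97 to 61.20 CPM in the 6 libraries with Nrf1 deleted and at 44.41 to 57.69 CPM in the other 5, and Dnmt3c at 2.98 to 4.97 CPM in the 6 libraries without Dnmt3C and at 3.89 to 4.85 CPM in the others. Which exons are deleted, and so whether these counts could fall, was not analysed here. The only feature called for Dnmt3C loss was the retrotransposon MMERVK10C-int (log2 fold change 2.04, edgeR quasi-likelihood test, adjusted p = 0.00457). With 1 library left out, the number of features called ran from 0, as without WT replicate 1, to 4, without dKO replicate 3.

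Rhox genes encode homeodomain transcription factors that are expressed mostly in the testis, epididymis, ovary and placenta. In the testis the cluster is divided between cell types: Sertoli cells, which nurse the germ cells and receive the androgen signal, use one set, and germ cells another. Rhox5 is the founding member and an androgen-responsive Sertoli cell gene. Rhox8 is also made by Sertoli cells. Rhox10 acts in early spermatogonia and in the founding of the spermatogonial stem cell pool, and Rhox13 is a gene of perinatal germ cells and spermatogonia.

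All 4 lie within a 1.09 Mb stretch of chromosome X that holds 42 annotated Rhox genes and pseudogenes, 34 of them protein coding (GRCm38, GENCODE release M21). Rhox5 occupies chrX:37804842-37808876 on the plus strand and Rhox8 chrX:37874778-37878944 on the minus strand, 65.9 kb further on. Rhox10 lies at chrX:38066475-38071691 and Rhox13 at chrX:38121219-38129967, both on the plus strand and 49.5 kb apart, with Rhox11, Rhox12 and the pseudogene Rhox11-ps3 between them. The gap between the Sertoli pair and the germ cell pair is 187.5 kb and holds Rhox7b, Rhox9 and the pseudogenes Rhox11-ps1 and Rhox11-ps2.

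The promoter windows of the germ cell pair are shown because these 2 genes moved together in the libraries and because DNMT3C and NRF1 both act at CG dinucleotides. Each window runs from 250 bases before to 50 bases after the RefSeq start (GRCm38.p6), 5′ to 3′ on the plus strand, with every CG in capitals.
Rhox10, chrX:38066225-38066524: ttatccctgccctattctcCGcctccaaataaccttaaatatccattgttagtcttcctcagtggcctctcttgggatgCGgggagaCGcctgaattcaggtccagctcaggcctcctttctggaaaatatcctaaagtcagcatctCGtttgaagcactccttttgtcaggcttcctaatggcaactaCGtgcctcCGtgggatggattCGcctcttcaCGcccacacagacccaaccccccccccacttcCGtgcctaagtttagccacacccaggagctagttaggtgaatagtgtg
Rhox13, chrX:38120590-38120889: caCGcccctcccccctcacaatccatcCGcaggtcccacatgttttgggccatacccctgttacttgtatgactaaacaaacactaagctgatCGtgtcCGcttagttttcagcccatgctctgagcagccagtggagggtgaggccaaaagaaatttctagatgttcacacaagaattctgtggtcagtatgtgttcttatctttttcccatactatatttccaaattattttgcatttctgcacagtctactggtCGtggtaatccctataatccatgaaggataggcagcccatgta

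The Rhox10 window held 9 CG and the Rhox13 window 5, where the median of 32841 windows of the same length was 7 and the upper quartile 20. Neither window is CG-dense. The letters TGCGCA, which are the core of the NRF1 motif and read the same on both strands, were in neither window and in 7.76% of all windows. The absence says only that these letters are not in these 300 bases. The RefSeq start of Rhox13 lies 379 bases before the start of the GENCODE model that was counted, while that of Rhox10 is the same base. The RefSeq start of Rhox5 lies 50234 bases before the counted model, so its window is not shown. Rhox8 had no entry.

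The 4 genes differed by orders of magnitude in level. Per kilobase of annotated exon, the WT mean was 157 CPM per kb ± 39.5 (SD, n = 2) for Rhox8, 3.06 ± 0.376 for Rhox13, 2.60 ± 0.151 for Rhox10 and 1.61 ± 1.42 for Rhox5. Rhox8 thus stood far above the other 3, and it gave 97.5% of the counts of the 4 genes together. The order of the lower 3 is not firm: in all 11 libraries their levels per kb spanned 0 to 7.58 for Rhox13, 0.532 to 6.62 for Rhox10 and 0.450 to 2.62 for Rhox5. By mean CPM, 836 genes were higher than Rhox8 and 16384 were higher than Rhox5. Counts per library were 4309 to 8038 for Rhox8, but 12 to 66 for Rhox5, 15 to 178 for Rhox10 and 0 to 234 for Rhox13, so counting error alone is wide for the last 3. The 66 counts of Rhox5 in its highest library had a 95% Poisson interval of 51.0 to 84.0, which covers counting error only.

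**Figure D1:**
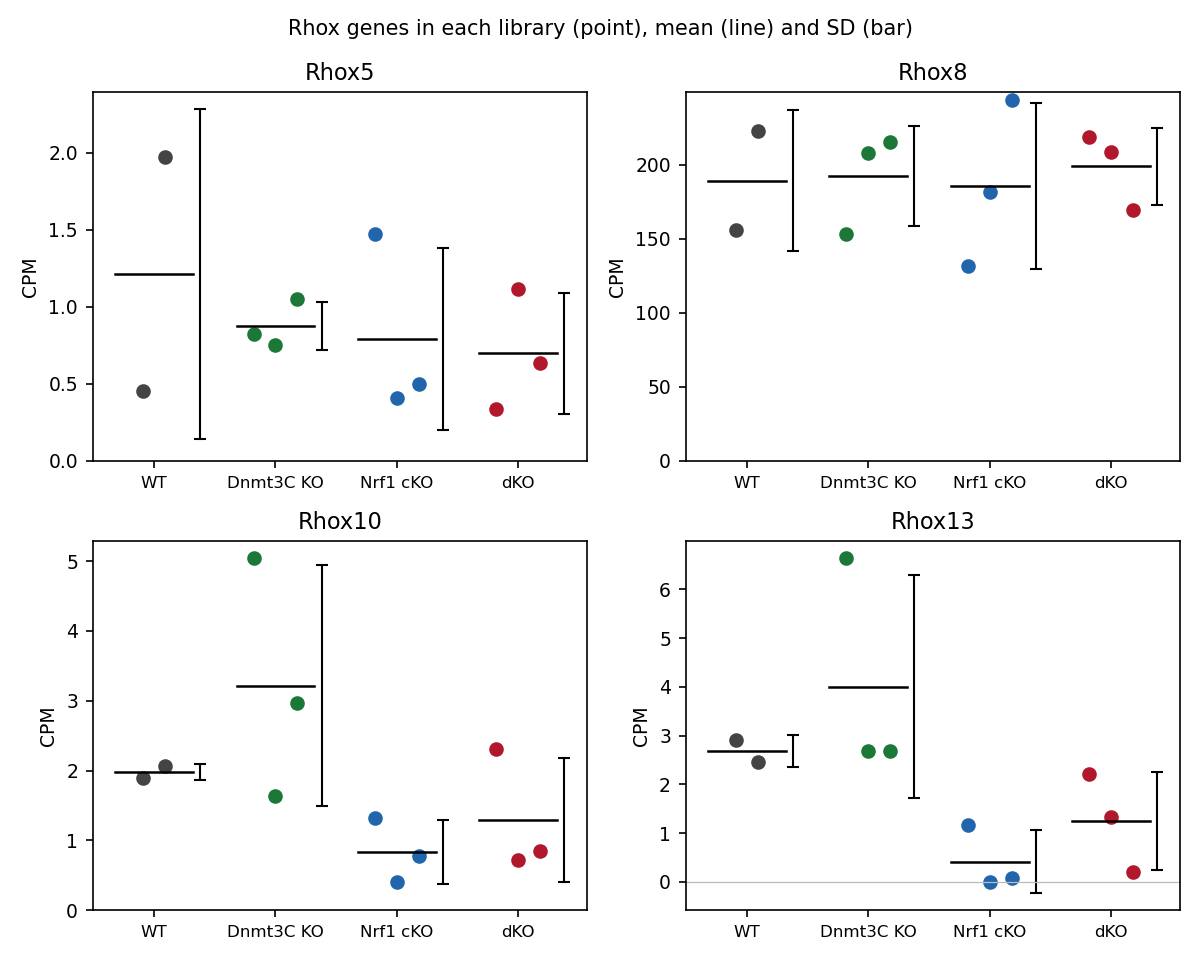
CPM of each gene (vertical axis, linear) by genotype (horizontal axis), with 1 point a library, a line at the mean and a bar of 1 SD beside it. All libraries with Nrf1 deleted (Nrf1 cKO and dKO) sit below all others for Rhox13, at 0 to 2.20 against 2.45 to 6.64 CPM, while the Rhox8 levels of the 4 genotypes overlap.

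Among the Sertoli cell genes, Rhox8 levels overlapped between all genotypes. The WT libraries had 156 and 223 CPM and those of Dnmt3C KO 154, 208 and 215 CPM. Nrf1 cKO libraries had 132, 182 and 244 CPM, and dKO libraries 219, 209 and 170 CPM. The lowest and the highest library were both Nrf1 cKO, and the ranges of all 4 genotypes overlapped. Over the 11 libraries, the difference between Nrf1 deleted and intact, with Dnmt3C genotype as a term, was 0.01 on the log2 scale (SE 0.16, edgeR quasi-likelihood test, adjusted p = 0.985). Its 95% interval ran from 0.802-fold to 1.27-fold. For Dnmt3C loss the difference was 0.06 (SE 0.16, edgeR adjusted p = 1), with an interval from 0.826-fold to 1.31-fold. Differences within these bounds could not be told from none, given a spread between libraries of 13.1% to 30.1% (coefficient of variation within a genotype).

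Rhox5 was low, at 12 to 66 counts a library. WT gave 0.455 and 1.97 CPM, Dnmt3C KO 0.823, 0.751 and 1.05 CPM, Nrf1 cKO 1.47, 0.406 and 0.501 CPM, and dKO 0.339, 1.12 and 0.634 CPM. The 2 WT libraries spanned nearly the whole range, so no genotype stood apart. The difference for Nrf1 deletion was -0.46 (SE 0.44, edgeR adjusted p = 0.789) and that for Dnmt3C loss -0.32 (SE 0.44, edgeR adjusted p = 1). The intervals, from 0.379-fold to 1.40-fold and from 0.416-fold to 1.54-fold, leave room for a sizeable change in either direction. Without WT replicate 2, the highest Rhox5 library, the Nrf1 difference was 0.0085 and that for Dnmt3C loss 0.15.

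The germ cell genes gave lower values where Nrf1 was deleted. Rhox10 measured 1.90 and 2.06 CPM in WT and 5.05, 1.63 and 2.97 CPM in Dnmt3C KO. Nrf1 cKO libraries had 1.32, 0.406 and 0.771 CPM, and dKO libraries 2.32, 0.715 and 0.846 CPM. Of the 6 libraries with Nrf1 deleted, dKO replicate 1 alone reached into the range of the 5 others. The log2 difference was -1.29 (SE 0.38, edgeR unadjusted p = 0.00428), or 0.408-fold with a 95% interval of 0.232 to 0.719, and it did not pass adjustment over all 22594 features tested (edgeR adjusted p = 0.424). In whole testis, fewer germ cells and less RNA per germ cell cannot be told apart.

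Rhox13 showed the widest gap. The WT libraries held 109 and 82 counts and the Dnmt3C KO libraries 234, 104 and 84. Those of Nrf1 cKO held 38, 0 and 2 counts and those of dKO 78, 43 and 7. The WT counts equal 2.92 and 2.45 CPM and those of Dnmt3C KO 6.64, 2.69 and 2.68 CPM, while Nrf1 cKO libraries stood at 1.16, 0 and 0.0771 CPM and dKO libraries at 2.20, 1.34 and 0.211 CPM. The count of 0 was in Nrf1 cKO replicate 2, where 3 counts, taken as the one-sided limit that a count of 0 allows, correspond to 0.0813 CPM. The 2 groups of libraries did not overlap. Among all features tested, 0.451% were lower with Nrf1 deleted without overlap, and Rhox13 was the 1 of the 4 genes that was. The log2 difference was -2.10 (SE 0.66, edgeR unadjusted p = 0.00668), or 0.233-fold with an interval of 0.0871 to 0.624, and the adjusted p was 0.463 in edgeR.

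With an adjusted p under 0.01 as the threshold, 0 of the 4 genes were called for Nrf1 deletion, where edgeR called 0.00443% of all features, which is the tubulin gene Tuba3a alone. At an unadjusted p under 0.05, 2 of the 4 passed, Rhox10 and Rhox13, against 7.87% of all features. DESeq2 also called 0 of the 4, with Rhox10 at an adjusted p of 0.0938, where it called 37 of the 22594 features.

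For Dnmt3C loss, the germ cell genes had positive differences that did not pass the test. Rhox10 differed by 0.67 (SE 0.39, edgeR adjusted p = 1) and Rhox13 by 1.06 (SE 0.67, edgeR adjusted p = 1), with intervals from 0.894-fold to 2.82-fold and from 0.766-fold to 5.65-fold. Without dKO replicate 1 these differences were 0.33 and 0.70, and without Nrf1 cKO replicate 1 that of Rhox13 was 1.65. Much of the excess over WT in Dnmt3C KO came from replicate 1, the highest library for both genes: without it the Dnmt3C KO to WT difference of Rhox10 went from 0.69 to 0.20, and that of Rhox13 from 0.57 to -0.014. edgeR called 0 of the 4 genes for Dnmt3C loss, against 0.00443% of all features, and 0 of the 4 had an unadjusted p under 0.05, against 2.90% of all. DESeq2 called 0 of the 4 as well, and 25 of the 22594 features.

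The 5 pairwise comparisons tested share libraries and are given side by side (Dnmt3C KO against Nrf1 cKO, which differ in both genes, was not tested). For Nrf1 cKO against WT, Rhox10 differed by -1.27 (SE 0.50, unadjusted p = 0.0305) and Rhox13 by -2.70 (SE 1.04, unadjusted p = 0.0264), both with an edgeR adjusted p of 0.847. In this comparison 2 of the 4 genes had an unadjusted p under 0.05, against 5.75% of all features, and 0 were called, against 0%. With DESeq2, and with all genotypes in 1 edgeR fit, 1 of the 4 had an unadjusted p under 0.05. The call of Rhox13 depends on the filter and on 1 library: without the filter on low counts edgeR gave -2.69 with an adjusted p of 0.000315 and 138 features called, and without Nrf1 cKO replicate 1 it gave -6.23 with an adjusted p of 0.00743. For dKO against Dnmt3C KO, Rhox10 differed by -1.31 (SE 0.53) and Rhox13 by -1.68 (SE 0.65), both with an edgeR adjusted p of 0.675. There too 2 of the 4 had an unadjusted p under 0.05, against 7.17% of all, and 0 were called, against 0%, while in the fit of all genotypes 1 of the 4 did. Without dKO replicate 1 the Rhox10 value was -2.05, and without Dnmt3C KO replicate 1 the values were -0.81 for Rhox10 and -1.09 for Rhox13. The deletion of Nrf1 was thus measured once in each Dnmt3C background, with negative values for both genes in both.

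For dKO against WT the differences were -0.62 for Rhox10 (SE 0.52) and -1.11 for Rhox13 (SE 0.67), and for dKO against Nrf1 cKO they were 0.65 (SE 0.58) and 1.59 (SE 1.17). These values moved with single libraries: leaving out 1 at a time, Rhox10 against WT ranged from -1.36 (without dKO replicate 1) to -0.33 (without dKO replicate 2), and Rhox13 from -1.82 (without dKO replicate 1) to -0.62 (without dKO replicate 3). Against Nrf1 cKO, Rhox10 was at -0.081 without dKO replicate 1 and at 1.15 with Nrf1 cKO replicate 1 left out, and Rhox13 was at 0.87 once dKO replicate 1 was left out. It stood at 5.09 when Nrf1 cKO replicate 1 was dropped, which leaves libraries of 0 and 2 counts. None of the 4 genes was called in either comparison, nor in Dnmt3C KO against WT, where 0% of all features were called in each. None of the 4 had an unadjusted p under 0.05 in these 3 comparisons. The background shares at that unadjusted p were 1.74%, 2.81% and 5.41%. Rhox5 and Rhox8 were called in none of the 5, with log2 differences from -0.81 to -0.19 for Rhox5 and from -0.04 to 0.10 for Rhox8. The direction of Rhox5 turned without WT replicate 2 in all 3 comparisons with WT (0.93 for Dnmt3C KO, 0.78 for Nrf1 cKO, 0.60 for dKO) and without Nrf1 cKO replicate 1 in dKO against Nrf1 cKO (0.61). The test of whether the Dnmt3C difference depends on Nrf1 gave 0.29 for Rhox5, 0.09 for Rhox8, -0.04 for Rhox10 and 1.01 for Rhox13, with SE of 0.92, 0.33, 0.83 and 1.37. The value of Rhox13 was 4.54 without Nrf1 cKO replicate 1 and 0.31 without dKO replicate 1. The adjusted p-values of the 4 genes in this edgeR test with all libraries were 0.940 to 0.997, and 0 of the 4 had an unadjusted p under 0.05, against 5.55% of all features.

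**Figure D2:**
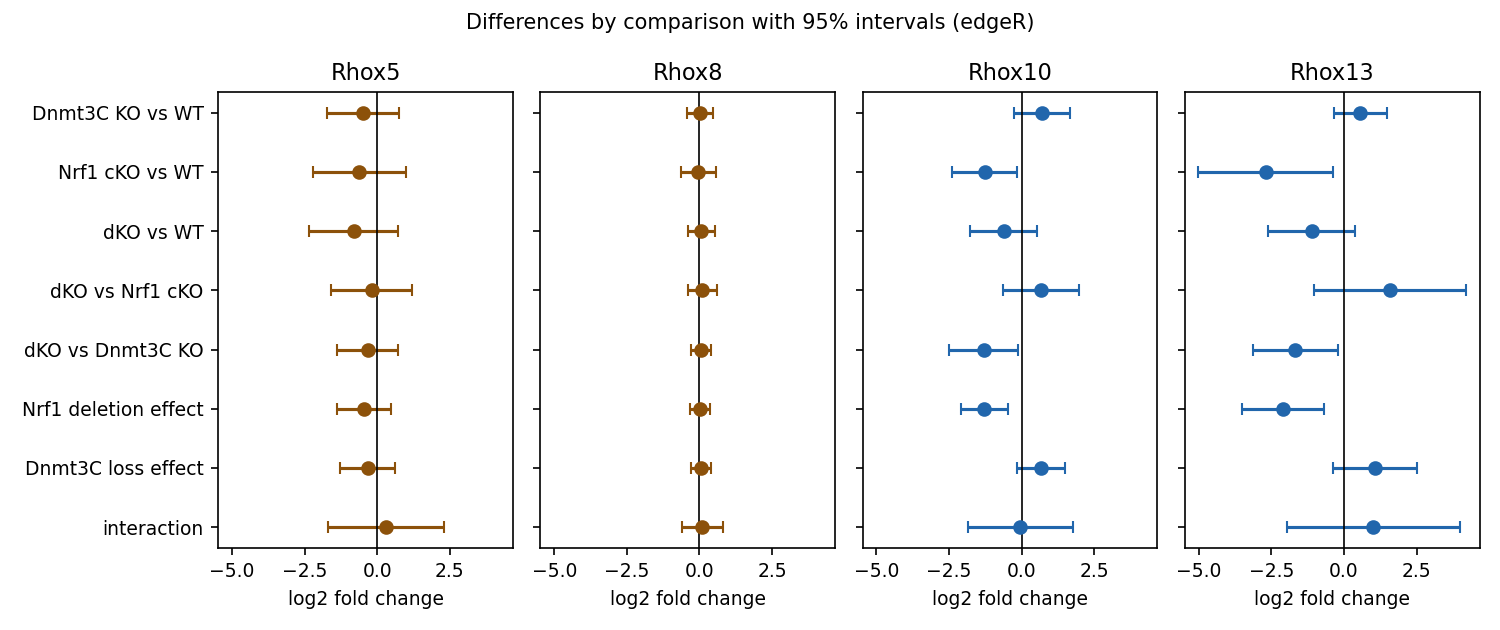
Log2 fold change (horizontal axis) of each gene in the 8 comparisons (vertical axis), as points with 95% intervals from edgeR. The intervals of Rhox10 and Rhox13 lie below 0 for Nrf1 cKO against WT, dKO against Dnmt3C KO and the Nrf1 deletion effect, while those of Rhox5 and Rhox8 include 0 in all 8.

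The germ cell markers moved with Rhox10 and Rhox13. All 24 of 24 had a negative difference for Nrf1 deletion, with a median of -1.05, against a median of 0.0012 over all features. The list was chosen with earlier results of these data known, so this count is no independent support. The same list is the reference for the relative values, the scaling and the correlations below. Of the 24, 19 had an unadjusted p under 0.05, against 7.87% of all features, and 0 were called. Their mean log2 CPM was 3.30 and 3.74 in the 2 WT libraries, 3.47 to 4.14 in Dnmt3C KO, 2.00 to 2.77 in Nrf1 cKO and 2.27 to 3.32 in dKO, and their summed level 433 to 527, 446 to 718, 144 to 288 and 196 to 441 CPM in the same order. The markers with the smallest p were Pramef12 (-0.96), Usp26 (-1.24), Tex11 (-1.24) and Sohlh2 (-1.25), of which Sohlh2 is a transcription factor of differentiating spermatogonia and Tex11 an X-linked meiosis gene. Their part in the Rhox10 and Rhox13 differences was not tested.

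Each germ cell gene was also measured relative to these markers, and the 2 genes were not tested against each other. The log2 CPM of Rhox10 minus the mean of the markers was -2.70 ± 0.638 (SD, n = 6) with Nrf1 deleted and -2.32 ± 0.431 (SD, n = 5) without, a difference of -0.374 (exact two-sided permutation test over 462 regroupings, p = 0.310, adjusted over 8 tests 0.495), which was -0.164 without dKO replicate 2. For Rhox13 the values were -4.04 ± 1.91 and -1.96 ± 0.326, a difference of -2.07 (exact permutation test, p = 0.0303, adjusted over 8 tests 0.242). The libraries with Nrf1 intact lay between -2.21 and -1.40. Nrf1 cKO replicates 2 and 3 at -7.08 and -5.29 and dKO replicate 3 at -4.32 were the farthest below, Nrf1 cKO replicate 1 at -2.51 and dKO replicate 2 at -2.87 were slightly below, and dKO replicate 1 at -2.13 was within that range. The 3 farthest are also the libraries with the lowest germ cell marker scores. For a gene at 0 the log2 value depends on the count added before the logarithm, 1 here, and 0.25 gave -2.48.

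Set to equal germ cell markers in edgeR, Rhox13 differed by -1.33 for Nrf1 deletion (SE 0.41, adjusted p = 0.00335) and Rhox10 by -0.33 (adjusted p = 0.453). Neither pairwise comparison of Nrf1 deletion called Rhox13 under this scaling. Nrf1 cKO against WT gave -1.77 (edgeR adjusted p = 0.0294). In dKO against Dnmt3C KO the lowest edgeR adjusted p of Rhox10 and Rhox13 was 0.171. For Nrf1 deletion under that scaling, 12173 of the 22594 features passed the same threshold in either direction, and the median of all features moved to 1.03. Rhox13 and Rhox10 stayed below 0, Rhox10 without an unadjusted p under 0.05, which 16714 features had. A germ cell gene with a difference below the mean of the markers stays below 0 under this scaling. Relative to the Sertoli cell markers, Rhox5 differed by -0.690 (exact permutation test, p = 0.223) and Rhox8 by -0.233 (exact permutation test, p = 0.175) between Nrf1 deleted and intact. Without WT replicate 2 these were -0.379 and -0.138. Of the 18 Sertoli cell markers, 17 had a positive difference, with a median of 0.28 and 4 at an unadjusted p under 0.05, against 7.87% of all features. Dnmt3C loss gave adjusted p-values of 0.468 to 0.913 for all 4 genes in the same exact permutation test.

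Over the 11 libraries, Rhox13 followed the germ cell marker score closely, with r = 0.946 (permutation test, p = 1e-05, the smallest these permutations can give, adjusted over 8 relations 8e-05) and Spearman's rho = 0.964 (permutation p = 2e-05, adjusted 0.00016). Without the 2 libraries farthest from the median score, Nrf1 cKO replicates 2 and 3, r was 0.949, and with each genotype's mean removed it was 0.859. For Rhox10, r was 0.850 (permutation p = 0.00086, adjusted 0.00344) and rho 0.718 (permutation p = 0.0166, adjusted 0.0665), with r = 0.748 without the same 2 libraries and 0.614 with genotype means removed. The library that departed most was dKO replicate 2, where Rhox10 stood at 0.715 CPM beside a germ cell score of 3.32. Rhox8 and the Sertoli cell score gave r = 0.482 (permutation p = 0.132) and rho = 0.300 (permutation p = 0.373), with r = 0.520 without 2 libraries and 0.606 with genotype means removed. Rhox5 gave r = -0.432 with the Sertoli cell score (permutation p = 0.186, rho -0.409, permutation p = 0.214) and r = 0.274 with the germ cell score (permutation p = 0.411, rho 0.273, permutation p = 0.417), and without 2 libraries these r were -0.179 and -0.0933. Against the markers of the other cell type, Rhox10 and Rhox13 gave r = -0.528 (permutation p = 0.0928, rho -0.600, permutation p = 0.0547) and r = -0.486 (permutation p = 0.132, rho -0.464, permutation p = 0.155) with the Sertoli cell score, and Rhox8 r = -0.114 (permutation p = 0.731, rho -0.245, permutation p = 0.467) with the germ cell score. Neither relation of the Sertoli pair to its markers passed the permutation test, the one of Rhox8 being positive and that of Rhox5 negative. Values in 1 library share its depth and scaling, which such correlations include. The permutations took no account of genotype, so their p-values include differences between genotypes. The r with genotype means removed was not tested.

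**Figure D3:**
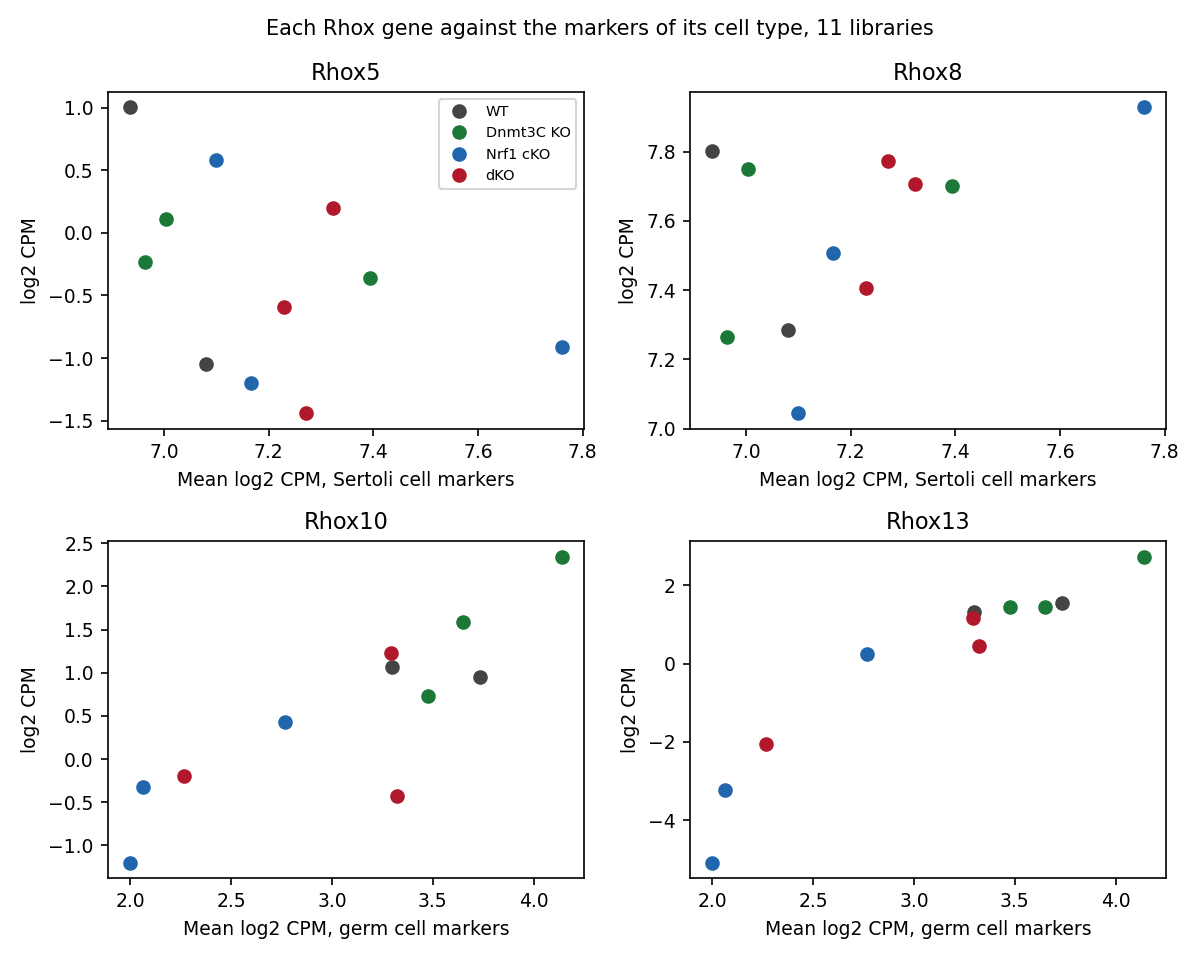
Log2 CPM of each gene (vertical axis) against the mean log2 CPM of the markers of its cell type (horizontal axis), with 1 point a library, coloured by genotype. Rhox13 drops steeply in the 3 libraries with a germ cell score of 2.00 to 2.27, while the points of Rhox5 and Rhox8 scatter more widely against the Sertoli cell markers (r = -0.432 and 0.482).

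The gene most like Rhox8 over the 11 libraries was Hsd17b3 (Pearson r = 0.917), the enzyme that makes testosterone from androstenedione, followed by Utp23, Poln, 2510002D24Rik and Kdsr. Those most like Rhox13 were Tdrd12 (r = 0.989), a gene of the piRNA pathway, Tktl1, Syce1, a synaptonemal complex gene, Morc1, which acts in retrotransposon silencing in male germ cells, and Gm15262. Those most like Rhox10 were Rnf212b (r = 0.957), Tex12, another synaptonemal complex gene, Mgl2, a macrophage lectin, Adad1 and Xlr. Those most like Rhox5 were Pi4k2b (r = 0.894), Cbx3, Gtf2h1, Mpzl2 and Nt5dc1. Rhox10 and Rhox13 had r = 0.870 with each other, and Rhox5 and Rhox8 had r = -0.088. These are likenesses chosen as the highest of all genes with a mean of at least 1 CPM, and they carry no test. For Nrf1 deletion Tdrd12 differed by -1.63, Tktl1 by -1.91, Syce1 by -2.035, Morc1 by -0.99 and Gm15262 by -0.95. Of these, Tdrd12, Tktl1 and Syce1 were below the germ cell marker median of -1.05, so such a difference is not particular to Rhox13.

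Of the 27 other Rhox rows, 14 had enough counts for a test and 13, with 3 to 42 counts over all libraries, did not. All 14 had a negative difference for Nrf1 deletion, with a median of -0.97, where 49.7% of all features were negative, and 6 of the 14 had an unadjusted p under 0.05, against 7.87% of all features. None was called. A gene that passes the filter through the libraries where it is high is more likely to show a difference, so these 14 do not stand for the 27. The lowest values were those of Rhox1 (-1.84, SE 0.53, edgeR adjusted p = 0.409), Rhox2f (-1.60), the pseudogene Rhox7-ps2 (-1.48) and Rhox4e (-1.37). Rhox1 measured 0.508 to 1.82 CPM with Nrf1 intact and 0.0386 to 0.791 CPM with Nrf1 deleted, with 3 counts and 1 count in Nrf1 cKO replicates 2 and 3.

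Smaller differences were measured for Rhox2h (-1.16), Rhox2d (-1.08), Rhox7a (-0.99), Rhox2b (-0.95), Rhox2a (-0.91), Rhox7b (-0.80), Rhox9 (-0.75), Rhox2c (-0.69), and the pseudogenes Rhox2-ps (-0.52) and Rhox7-ps1 (-0.34). Of these 14, Rhox7a and Rhox2f alone, 2 in all, were lower in every library with Nrf1 deleted than in any other, against 0.451% of all features. The Rhox2f gap is narrow, since the highest libraries with Nrf1 deleted had 9 counts and the lowest of the others 10. For Dnmt3C loss 7 of the 11 coding genes tested, a count that leaves out the 3 pseudogenes, were above 0, where 10983 of all 22594 features were, with Rhox2d the highest at 1.37 (SE 0.53, edgeR unadjusted p = 0.0207, adjusted p = 1). The Rhox2 and Rhox4 genes are tandem copies that share sequence, and reads that match several copies were divided among them, so values of single copies are uncertain. The counts over the 14 rows, set against shares of all features, therefore do not rest on 14 separate observations.

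**Figure D4:**
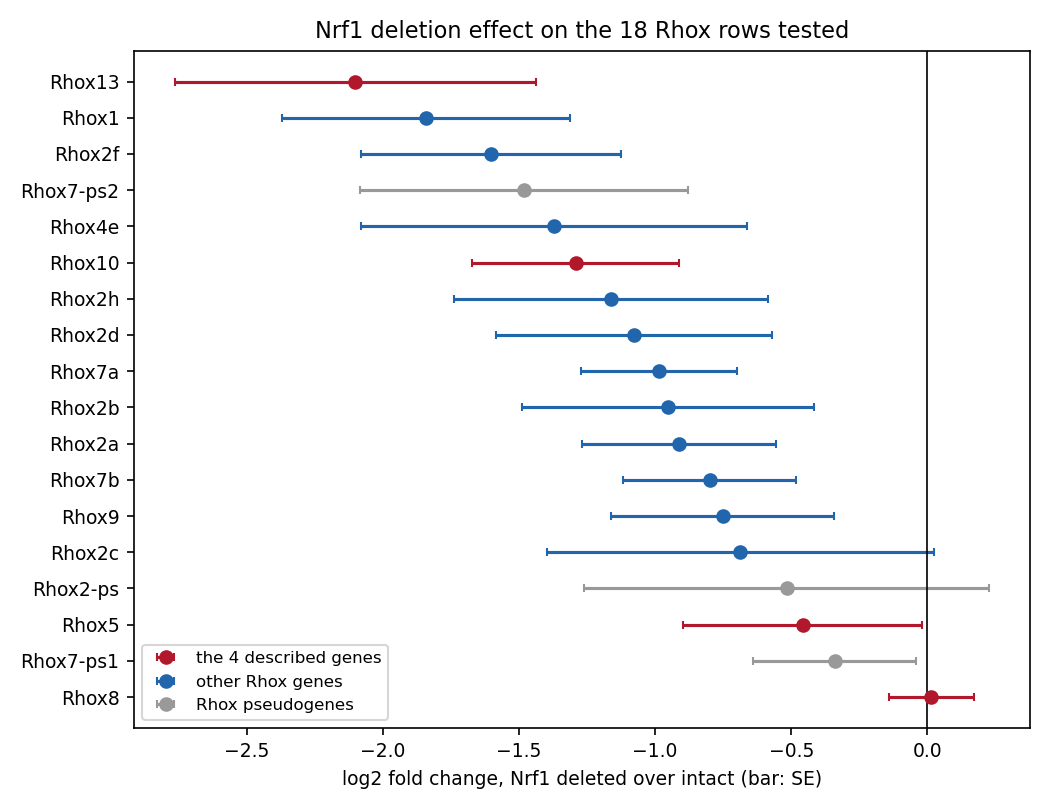
Log2 fold change between Nrf1 deleted and intact (horizontal axis, bars of 1 SE) for the 18 Rhox rows tested, sorted by value. Rhox13 is at the low end with -2.10 and Rhox8, at 0.01, is the one row above 0.

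Of 11 genes that flank the cluster, 9 were tested, 6 below and 3 above 0 for Nrf1 deletion, with a median of -0.09 and a range from -0.11 (Zbtb33) to 0.12 (Mcts1), and 0 with an unadjusted p under 0.05. Regulators of spermatogonial stem cells had 12 of 15 below 0, with a median of -0.28. Of the 15, 3 had an unadjusted p under 0.05, against 7.87% of all features: Nanos2 (-1.23), Zbtb16 (-0.72) and Taf4b (-0.39). Nanos2 keeps stem cells undifferentiated, Zbtb16 encodes the stem cell factor PLZF, and both are also among the germ cell markers. Of 11 genes of androgen production and response, the setting in which Rhox5 is regulated, 8 were above 0, with a median of 0.18. Tubb3 differed by 0.49 (unadjusted p = 0.0076, edgeR adjusted p = 0.483), and the Leydig cell enzyme Cyp17a1 by -0.52, which was not at an unadjusted p under 0.05. The 10 genes of repression by DNA methylation and H3K9 methylation had a median of 0.03, with Dnmt3a at 0.25, Dnmt3b at -0.27 and Setdb1 at 0.15, and none of them had an unadjusted p under 0.05. No gene of these lists was called.

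Markers of the other cell types of the testis showed medians of 0.04 for Leydig cells, -0.21 for peritubular cells, 0.16 for endothelial cells, -0.15 for macrophages and -0.59 for red blood cells between Nrf1 deleted and intact, with 0 of the 6 markers of each at an unadjusted p under 0.05. For Dnmt3C loss, 22 of the 24 germ cell markers were above 0, with a median of 0.53. Of them 12 had an unadjusted p under 0.05, against 2.90% of all features, and none was called. All 6 of 6 red blood cell markers and 6 of 6 endothelial cell markers were below 0, with medians of -0.98 and -0.41. Of these, 3 red blood cell and 2 endothelial cell markers had an unadjusted p under 0.05. The summed red blood cell level was highest in WT replicate 2, also the highest Rhox5 library, and in Nrf1 cKO replicate 2, at 2117 and 1766 CPM, against 263 to 780.4 CPM in the other 9. Their part in the values of the 4 genes was not tested.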

How the data were processed

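Per the study's methods, the authors aligned stranded poly-A reads to GRCm38 with STAR (2.7.3a) and counted genes (GENCODE M25) and transposable element subfamilies with TEtranscripts in its multi mode, which divides reads that match several places. They deposited raw counts in pairwise tables, which also held their own DESeq2 fold changes and p-values for each pair; those columns were not used. A table of TPM for single transposable element copies holds no genes and was not used. The authors had left replicates out for low RNA quality.

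Libraries were joined over the tables by column name, and repeated columns held identical counts. CPM used TMM-scaled totals, and log2 CPM a prior count of 1. Differences were tested with edgeR 4.0.16 (filterByExpr, TMM, quasi-likelihood F test, R 4.3.3), with Benjamini-Hochberg adjustment over all genes and subfamilies and a threshold of 0.01. DESeq2 1.42.0 and other settings were alternatives. The 95% intervals use the degrees of freedom implied by each test. Tests of single values relative to markers were exact permutation tests (scipy 1.17.1); correlations used 100000 permutations. The fits were tested on simulated data. Replicates differed by more than sampling noise (chi-square over degrees of freedom 17.62 to 61.76). Depth was 26063590 to 39365841 counts, and intervals on counts cover counting error only. Per the study's methods, littermates were collected, but the sources do not say which libraries share a litter, so p-values measure the spread between these samples.

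The genes, lists and markers were chosen with earlier results of these data known. Besides the 4 genes and the targeted genes, the text names every other Rhox gene tested, up to 4 genes a list by the smallest p for Nrf1 deletion and up to 2 for Dnmt3C loss, and the 5 genes most like each of the 4. Promoter windows are from RefSeq (3 of the 4 genes matched by symbol).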

Additional observations from a re-analysis of the deposited data

How the results depend on the processing

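Most alternatives left the direction and the side of the threshold as they were for the 4 genes in the 8 comparisons: DESeq2, DESeq2 size factors in edgeR, totals of genes only and an adjusted p under 0.05 changed none, nor did 1 fit of all genotypes in the 5 pairwise comparisons. Rhox13 in Nrf1 cKO against WT passed the threshold without the filter on low counts (-2.69) and with the replicate block (-3.06, adjusted p = 0.00249), and for Nrf1 deletion when scaled to equal germ cell markers (-1.33). Rhox8 turned negative when scaled to equal Sertoli cell markers: -0.11 for Dnmt3C KO against WT, -0.21 for dKO against WT, -0.11 for dKO against Dnmt3C KO and -0.24 for Nrf1 deletion. The replicate block also reversed Rhox8 in Dnmt3C KO against WT (-0.074) and the interaction of Rhox5 (-0.0036) and Rhox10 (0.11). With the median of the markers, Rhox5 relative to the Sertoli cell markers gave 0.0038 for Dnmt3C loss. The cause was not tested.

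Leaving out each library in turn, Rhox13 in Nrf1 cKO against WT ranged from -6.23 to -2.10, and past the threshold only without Nrf1 cKO replicate 1, where the other 2 libraries hold 0 and 2 counts. Its range was -0.014 to 0.79 for Dnmt3C KO against WT. Rhox10 ranged from -0.081 to 1.15 for dKO against Nrf1 cKO, from -0.78 to 0.46 for the interaction, and from -0.044 to 0.36 relative to germ cell markers for Dnmt3C loss. Rhox10 and Rhox13 stayed negative for Nrf1 deletion, from -1.65 to -1.04 and from -2.64 to -1.83. Rhox5 ranged from -1.18 to 0.93 for Dnmt3C KO against WT, -1.42 to 0.78 for Nrf1 cKO against WT, -1.52 to 0.60 for dKO against WT, -0.68 to 0.61 for dKO against Nrf1 cKO, -0.75 to 0.0085 for Nrf1 deletion, -0.59 to 0.15 for Dnmt3C loss, -1.13 to 1.09 for the interaction, and -0.35 to 0.34 relative to Sertoli cell markers for Dnmt3C loss. Rhox8 ranged from -0.22 to 0.30, -0.29 to 0.24, -0.18 to 0.34, -0.10 to 0.35 and -0.075 to 0.15 in the 5 pairwise comparisons in the order Dnmt3C KO, Nrf1 cKO and dKO against WT, then dKO against Nrf1 cKO and against Dnmt3C KO, and from -0.083 to 0.12, -0.048 to 0.18 and -0.20 to 0.33 for Nrf1 deletion, Dnmt3C loss and the interaction.

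Replicate numbers, taken from the library titles, did not pair the libraries, and number 3 of Dnmt3C KO and of dKO carries another number in the count tables: over 15 same-numbered pairs the correlation of deviations ran from -0.236 to 0.22, with 3 over 0.1. Over all features, the 8 comparisons gave 0 to 1 calls in the fits as reported, 0 to 131 with the block, 0 to 37 with DESeq2, 0 to 158 without the filter, 0 to 79 and 2 to 12173 under scaling to Sertoli and germ cell markers, and 0 to 25 without 1 library. Depth limits Rhox5, Rhox10 and Rhox13, which had 12, 15 and 0 counts in their lowest libraries.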
